A study of Mus musculus with 18 samples.

Results

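The baseline distribution of the histone marks H3K36me2 and H3K27me3 was described in wild-type mouse epidermis from 6 of the 18 CUT&RUN libraries of the series. CUT&RUN uses an antibody to direct a nuclease to a chromatin mark and sequences the DNA that is released. The 6 libraries were chosen by the genotype label "Krt14-Cre(-); LSL-H3K36M" and by antibody, and comprise 3 libraries of H3K36me2 and 3 of H3K27me3 from the same 3 animals. The study as a whole has 6 groups of 3 libraries from 6 animals, with an IgG group in each genotype and 3 animals per genotype. The animals described here carry the LSL-H3K36M construct, a mutant histone H3 gene behind a lox-stop-lox cassette, but no Krt14-Cre, and are called WT below as in the column names of the tables. Their age was not given in the labels. The material was a single-cell suspension of epidermis, so that the cells that express Krt14 (keratin 14, of basal keratinocytes) are mixed with other epidermal cells, and a weaker mark in every cell cannot be told apart from a mark in fewer cells. The deposited tables hold 1 value per genotype and mark, with no column per library, so every value below is the authors' value for the WT group, has no replicate error and was not tested.

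H3K36me2 (dimethylation of lysine 36 of histone H3) is placed mainly by NSD-family methyltransferases and is known to cover broad domains between and within genes. H3K27me3 (trimethylation of lysine 27) is placed by Polycomb repressive complex 2 and marks the CpG-rich starts of silent developmental regulators. In biochemical work, methylation of lysine 36 hinders Polycomb repressive complex 2 on the same histone tail, and the mutant histone H3K36M blocks lysine 36 methyltransferases. In the epidermis, Polycomb repression is known to keep genes of other lineages, such as those of Merkel cells, silent in keratinocytes.

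H3K36me2 was read from 12908 autosomal islands (76.2 Mb) of the 13409 islands in the authors' SICER2 table. Density is the WT read count of an island, scaled to the depth of the pool (RPM) and to its length (RPM per kb). H3K27me3 was read from 4257 autosomal windows of 401 bp out of 4285 in the authors' deposited table, as the log2 mean of normalised reads in WT, and H3K36me2 also from 730 such windows. Both window tables hold only windows that differed between WT and mutant animals, at an FDR under 0.05 for H3K27me3 and at an unadjusted p under 0.05 for H3K36me2, of 18072 windows tested for each mark. Thus 2718 of the H3K27me3 windows are listed as lower in the mutant and 1539 as higher, and the levels describe these windows, not the whole genome. The islands were likewise called over both genotypes: 2235 of the 12908 are listed as higher in the mutant, with a median WT density of 0.528 RPM per kb, against 0.721 in the other 10673. Intervals given below cover counting error, or the spread among islands or windows, and not the spread between animals. Genes are the 20661 autosomal protein-coding genes of RefSeq on GRCm38, and all coordinates are GRCm38.

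The promoters at or near which each mark was found are shown for their base composition. Of the 300 bases from 250 before to 50 after a gene's start (RefSeq, GRCm38.p6), 4 promoters with some of the highest H3K27me3 windows within 1 kb of the start are given first, and 3 that lie under dense H3K36me2 islands follow. They are written 5′ to 3′ on the gene's strand in lower case, with each CG dinucleotide in capitals. The windows of Gsx2, Six3 and Barhl1 lie beside the printed stretch and that of Sfmbt2 overlaps it, while the islands of the last 3 cover it.
Gsx2: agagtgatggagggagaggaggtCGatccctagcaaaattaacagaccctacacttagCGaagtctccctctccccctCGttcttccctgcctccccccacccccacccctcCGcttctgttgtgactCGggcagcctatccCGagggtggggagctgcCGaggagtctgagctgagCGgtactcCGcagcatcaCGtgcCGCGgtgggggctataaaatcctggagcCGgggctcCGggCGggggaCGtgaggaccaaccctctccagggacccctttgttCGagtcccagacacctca
Six3: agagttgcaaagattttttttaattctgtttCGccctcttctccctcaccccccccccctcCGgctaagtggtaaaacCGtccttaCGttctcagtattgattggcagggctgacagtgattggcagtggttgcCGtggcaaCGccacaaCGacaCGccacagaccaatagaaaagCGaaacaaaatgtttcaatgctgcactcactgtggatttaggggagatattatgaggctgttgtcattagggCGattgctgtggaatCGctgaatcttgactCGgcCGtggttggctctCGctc
Barhl1: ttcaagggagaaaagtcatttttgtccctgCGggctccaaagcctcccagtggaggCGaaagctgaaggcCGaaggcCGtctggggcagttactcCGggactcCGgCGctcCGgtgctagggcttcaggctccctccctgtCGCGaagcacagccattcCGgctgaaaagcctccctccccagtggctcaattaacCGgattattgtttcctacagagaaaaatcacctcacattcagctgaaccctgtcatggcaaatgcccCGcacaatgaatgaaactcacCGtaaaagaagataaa
Sfmbt2: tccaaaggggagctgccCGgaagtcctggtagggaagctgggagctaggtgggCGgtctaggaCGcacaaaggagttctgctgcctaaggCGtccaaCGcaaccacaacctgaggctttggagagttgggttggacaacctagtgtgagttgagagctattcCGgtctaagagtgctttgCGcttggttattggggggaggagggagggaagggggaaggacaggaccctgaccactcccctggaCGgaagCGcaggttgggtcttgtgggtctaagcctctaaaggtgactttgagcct
Ugt1a1: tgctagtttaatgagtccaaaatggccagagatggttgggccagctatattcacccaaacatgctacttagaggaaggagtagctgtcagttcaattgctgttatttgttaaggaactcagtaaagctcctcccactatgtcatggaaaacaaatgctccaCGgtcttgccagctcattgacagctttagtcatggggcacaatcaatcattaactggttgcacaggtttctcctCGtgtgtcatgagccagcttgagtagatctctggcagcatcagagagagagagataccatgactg
Ivl: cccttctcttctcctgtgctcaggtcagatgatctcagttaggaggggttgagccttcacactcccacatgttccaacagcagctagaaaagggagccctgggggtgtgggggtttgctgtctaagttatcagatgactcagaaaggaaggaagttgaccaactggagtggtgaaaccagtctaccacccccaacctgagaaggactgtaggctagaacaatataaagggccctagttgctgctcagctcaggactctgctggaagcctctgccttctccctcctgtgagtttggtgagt
B2m: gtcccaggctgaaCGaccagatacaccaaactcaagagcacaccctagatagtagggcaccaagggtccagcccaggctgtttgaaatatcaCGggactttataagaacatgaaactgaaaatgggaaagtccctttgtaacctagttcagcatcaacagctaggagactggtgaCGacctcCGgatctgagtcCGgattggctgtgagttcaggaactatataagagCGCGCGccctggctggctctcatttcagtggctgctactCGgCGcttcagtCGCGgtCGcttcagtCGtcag

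Gsx2, a homeobox factor of the forebrain (chr5:75075351-75075650, plus strand), has 17 CG in this stretch and a window of 171.5 normalised reads 443 bp from its start. Six3, a homeobox factor of the eye and forebrain (chr17:85620584-85620883, plus strand), has 14 CG and 169.8 reads. Barhl1, a homeobox factor of sensory neurons (chr2:28912446-28912745, minus strand), has 14 CG and 167.5 reads. Sfmbt2, a Polycomb group protein (chr2:10370201-10370500, plus strand), has 9 CG and 164.5 reads. Ugt1a1, which conjugates bilirubin (chr1:88211709-88212008, plus strand), has 2 CG and lies in an island of 2.84 RPM per kb. The same island covers the promoter of Hjurp, a centromere protein, with 22 CG, and that of Mroh2a with none. Ivl, involucrin of the cornified envelope (chr3:92573686-92573985, minus strand), has no CG and lies in an island of 0.919 RPM per kb (148 reads). B2m, the light chain of MHC class I (chr2:122147437-122147736, plus strand), has 14 CG and lies in an island of 0.862 RPM per kb (196 reads), so that promoters with many CG also occur under dense islands.

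Over all promoters the same contrast was seen as counts. The motif CG, which reads the same on both strands, was counted in the 20084 promoters of the 16456 autosomal protein-coding genes that the table holds. The median promoter had 14 CG, and 57.9% had 10 or more. The 106 promoters (97 genes) with a strong H3K27me3 window within 1 kb of the start had a median of 19, and 84.9% had 10 or more. The 435 promoters with a listed window that was not strong had a median of 15 and a share of 69.4%. Where the only windows nearby were listed as higher in the mutant, the 30 promoters had a median of 6 and a share of 30.0%. The 677 promoters under an H3K36me2 island (585 genes) had a median of 7, with 40.9% at 10 or more. The 61 promoters under a dense island (57 genes) had a median of 2, with 11.5% at 10 or more. They include members of gene families, such as Speer4c, Speer4d and Speer4e, and Zfp981, Zfp982, Zfp988 and Zfp993. Some also share an island, as do Ugt1a1, Mroh2a and Hjurp, so these promoters are not independent. The part of multi-copy sequence in this class was not tested. Strong and dense are defined below. These counts describe sequence and say nothing of which factor binds.

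H3K36me2 density varied little among most islands. The islands are regions called from the same reads, so this describes the called regions and not how the mark is spread over the genome. The median density was 0.704 RPM per kb (95% interval 0.701 to 0.705 over islands), the middle 50% of islands lay between 0.633 and 0.770, and the median island held 167 reads over 5000 bp. The top 10%, called dense, began at 0.846 RPM per kb or 40.1 reads per kb, only 1.20 times the median, with islands of 0.8465 just inside and 0.8464 just outside. Above the 99th percentile of 1.95 a thin tail reached 1476. All autosomal islands together held 6.31% of the 47361190 WT reads, and 12.7% of those reads fell in just 24 islands of over 10 times the median density.

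Those 24 islands were mostly short (median 1100 bp) and away from genes, and only 6 touched a protein-coding gene body. The densest, at chr2:98666201-98667400, held 83882 reads at 1476 RPM per kb, and a neighbour at chr2:98662001-98665400 had 221.1. Others lay at chr14:19415601-19419800 with 277.5, at chr12:3108401-3110200 with 178.1, and at chr9:35304001-35307400 with 122 RPM per kb, the last over the long noncoding RNA gene Gm33838. The island with the most reads, 131940, spanned chr9:2999801-3038400 at 72.2 RPM per kb. One at chr17:39842401-39849000 covered the ribosomal RNA pseudogene Rn18s-rs5 at 20.5 RPM per kb. The handling of multi-mapping reads, duplicates and blacklisted regions was not given in the sources, and the part of multi-copy sequence in these values was not tested.

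Islands outside genes were denser than those in genes. Of the 12908 islands, 7004 (54.3%) overlapped a protein-coding gene body, with a median of 0.670 RPM per kb, against 0.739 in the 5904 outside, a ratio of 0.906. The middle 50% ran from 0.581 to 0.736 in bodies and from 0.682 to 0.800 outside, so that the classes overlapped widely. Distance from the gene made no visible difference beyond the body: the median was 0.731 within 5 kb, 0.739 at 5 to 50 kb and 0.736 further away. Dense islands made up 6.35% (95% interval 5.79 to 6.95) of islands in bodies and 14.3% (13.4 to 15.3) of those outside. Put the other way, 445 of the 1291 dense islands (34.5%) were in gene bodies, against 54.3% of all islands.

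Part of that contrast went with the listing. Of the islands listed as higher in the mutant, 80.6% were in bodies, against 48.7% of the rest. Among the islands not listed as higher, the median was 0.701 in bodies and 0.739 outside, a ratio of 0.948. Among the 7772 listed as lower in the mutant, 40.5% were in bodies and the ratio was 0.974, with medians of 0.725 and 0.744. This class held 814 of the 1291 dense islands (63.1%), close to its 60.2% of all islands. Those listed as higher in the mutant held 124 dense islands (9.61%), against 17.3% of all islands.

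**Figure D1:**
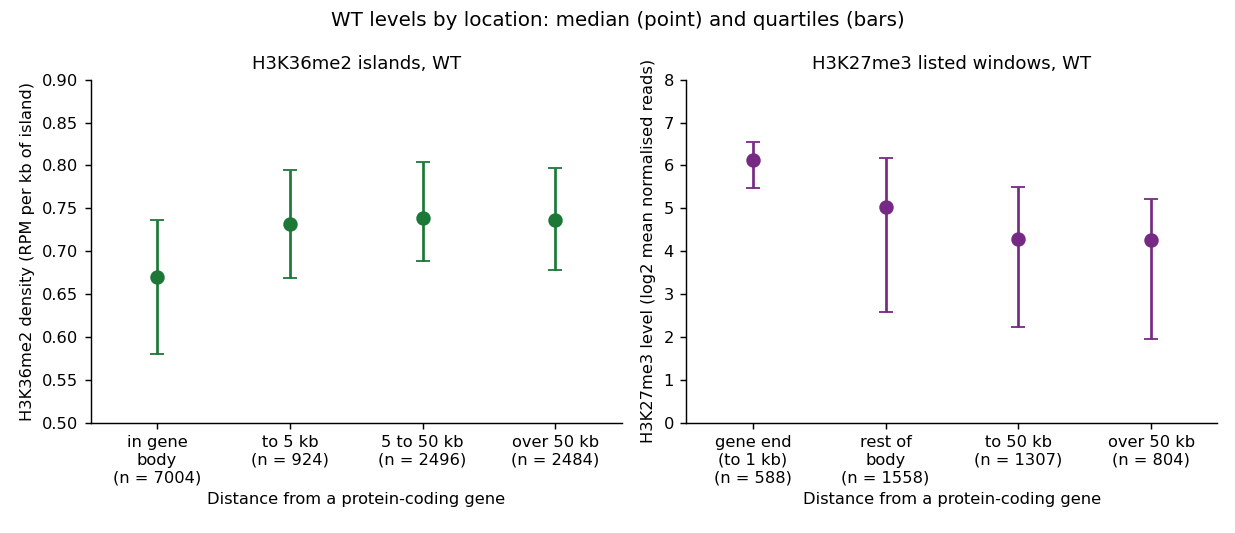
WT H3K36me2 density of islands (left, RPM per kb) and WT H3K27me3 level of listed windows (right, log2 mean normalised reads) by distance from a protein-coding gene, as median (point) and quartiles (bars), with the number of islands or windows below. The left axis starts at 0.5. Islands in gene bodies have the lowest median (0.670), and windows at gene ends have the highest (6.12).

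Host gene length and chromosome also went with density. In bodies, the median was 0.668 for genes under 20 kb, 0.657 at 20 to 100 kb, 0.673 at 100 to 500 kb and 0.712 in genes over 500 kb. By chromosome, the share of dense islands was highest on chromosome 8 (17.9%), followed by chromosome 4 (15.5%) and chromosome 1 (13.7%), and lowest on chromosome 18 (6.48%) and chromosome 19 (6.64%). Short islands read high: the 111 islands under 1 kb had a median of 2.06 RPM per kb on few reads, a median of 47. The 1122 islands of 10 kb or more had a median of 0.741. The dense class therefore leans to short islands, with a median width of 3600 bp against 5000 bp over all. Dense islands were 93.7% of those under 1 kb and 38.9% of the 985 of 1 to 3 kb. The share was 6.83% at 3 to 6 kb, 5.11% at 6 to 10 kb and 11.9% at 10 kb or more.

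The densest islands of at least 1 kb in a gene body were a mixed set of genes. The highest was a 1000 bp island in Chl1, a neuronal adhesion molecule, with 10667 reads and 225.2 RPM per kb, among the 24 of extreme density. It was followed by Sfi1, a centrosomal protein, with 11.8 RPM per kb and islands over 76.0% of its body. E030030I06Rik had 6.17, and D5Ertd579e and Gm32584, which share an island, had 5.60. Tmem267 had 5.13, in an island listed as higher in the mutant. Fbxw4, an F-box protein, had 5.03, and Cdk8, the kinase of the Mediator complex, had 4.77. The agouti gene (symbol a), whose product acts on melanocytes to switch pigment type, had an island of 7000 bp at chr2:155019601-155026600 with 1096 reads and 3.31 RPM per kb.

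One broad dense island overlapped drug- and bilirubin-conjugating genes and other genes beside them. The island at chr1:88210201-88293400 was 83200 bp wide and held 11203 reads at 2.84 RPM per kb (counting interval 2.79 to 2.90). It overlapped genes of the Ugt1a cluster, Mroh2a and Hjurp. The next island, at chr1:88294201-88311800 over Trpm8, had 2.12. No IgG value is given beside these islands, and the part of copy number or multi-copy sequence in their density was not tested. The widest island of all, 87800 bp at chr5:15457801-15545600 over Gm21149 and Gm21190, had 1.63. Outside genes, the widest was 72400 bp at chr13:12870201-12942600 with 0.981. Another, at chr12:115612201-115656600 over variable segments of the immunoglobulin heavy chain locus, had 0.996.

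Several dense islands also occurred at single genes. Sfi1 had 11 within 5 kb. Sp140 and Sp110, interferon-inducible nuclear body proteins whose genes overlap on chromosome 1, had 8 and 6, with all 6 of Sp110 among those of Sp140. Zfp978, a zinc finger gene of a cluster on chromosome 4, had 8 of its 12 islands dense. The long genes differed from these in their density: Adgrv1, an adhesion receptor, had 9 dense islands of 25, up to 0.980, and Maml2, a Notch coactivator, had 5 of 19, up to 0.938. These genes were picked after their values were seen.

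By bases covered, the leading genes were long. Rad51b, a recombination protein, had 298060 bp or 54.1% of its body in 40 islands, 7 of them listed as higher in the mutant, and none above 0.884 RPM per kb. Aopep, an aminopeptidase, had 196604 bp (54.4%) in 22 islands. Cmss1 had 161200 bp (52.9%), and Filip1l, which lies in Cmss1, 154200 bp (70.2%). Macrod2 had 164200 bp but only 8.22% of its body. Adgrv1 had 158133 bp (29.4%), Sema5a, a semaphorin of axon guidance, 139400 bp (30.9%), and Maml2 132600 bp (32.1%). Zfp978 had 132346 bp (49.5%) and Lpp, a focal adhesion protein, 124400 bp (20.8%). None of these 10 genes was among the 12 with the densest islands, though Zfp978 reached 1.69 RPM per kb.

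Most genes had little of their body in called islands, and H3K36me2 outside the islands is not counted here. Of 9575 genes of at least 20 kb, 2756 had any, 1479 had over 10%, 465 over 25%, 60 over 50% and 16 over 75%. The 16 include Mroh2a, covered whole, and the zinc finger genes Zfp992, Zfp982, Zfp984, Zfp985 and Zfp981 between 77.0% and 96.1%. They also include Mki67, the proliferation antigen Ki-67, at 81.1%, and Klf13, a Krüppel-like factor, at 76.1%, and were named after their values were seen.

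The H3K36me2 windows gave a second reading of the same mark, from the same libraries. The 730 windows had a median of 3.23 (9.38 normalised reads) and a maximum of 4.49. The 507 listed as lower in the mutant had a median of 3.46, with 38.7% inside an island, and the 223 listed as higher had 1.45, with 6.73% inside. Windows inside islands had a median of 3.65 against 2.96 outside, and 76.7% of the top 73 lay in islands. Islands were called by their H3K36me2 reads, so a higher level inside them is built in and is no independent check. Of the 211 windows inside, 196 are listed as lower in the mutant. By place, the median was 2.18 at gene ends (57 windows), 3.03 deeper in bodies (299), 3.29 within 50 kb of a gene (224) and 3.46 further out (150). This order is opposite to that of H3K27me3 below. Both contrasts pool the 2 directions of listing, and the part of that mix was not tested. The highest window near a gene was 4777 bp from Hnrnpu, an RNA-binding protein, with 22.4 reads. Ninj2, an adhesion protein with 54.9% of its body in islands, had 19.96 reads, and Ptprn2, a receptor-like phosphatase of secretory vesicles, had 19.6. Niban2 had 18.8, Slc37a2 18.3, Rdh1, a retinol dehydrogenase, 18.2, Pcmtd1 17.9 and Tlr3, the receptor for double-stranded RNA, 17.7 reads.

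H3K27me3 was highest at the ends of genes. Over the 4257 listed windows the median was 4.87 (29.2 reads). The 588 windows within 1 kb of either end of a gene had 6.12 (69.4 reads), the 1558 deeper in a body 5.04 (32.9 reads), the 1307 within 50 kb of a gene 4.28 (19.4 reads), and the 804 further away 4.27 (19.3 reads). Gene ends stood 1.51 above the rest on the log2 scale. This difference is smaller within each direction of listing: 6.18 against 5.54 for windows listed as lower in the mutant, and 2.27 against 1.94 for those listed as higher. Gene ends held 540 of the former and 48 of the latter.

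Strong windows, the top 10% of listed windows, had at least 6.64 on the log2 scale (99.5 reads), with 6.638 just inside and 6.637 just outside. All 426 are listed as lower in the mutant. Of these, 117 (27.5%) were within 1 kb of a gene end, against 13.8% of all listed windows, and 71.4% were within 5 kb, against 33.9%. Gene bodies and their 5 kb flanks held 356 of the 426 (83.6%). The share of strong windows was higher beside the start than over it. Strong windows made up 7.35% of the 68 windows over a start, 21.9% of the 415 within 1 kb of it, 28.4% of the 236 at 1 to 2 kb and 18.1% of the 304 at 2 to 5 kb, and 7.13% beyond 100 kb. Start positions here are those of the genes with a promoter sequence.

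Along genes of at least 20 kb the marks had different profiles. In 7569 such genes with a known strand, divided into 10 equal parts, the part at the start held 105 strong H3K27me3 windows, or 1.48 per Mb, and each later part held 2 to 8, at most 0.113 per Mb. Islands covered 4.06% of the part at the start, 4.57% of the next, and between 2.92% and 4.36% of the others, with the lowest value in the last.

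**Figure D2:**
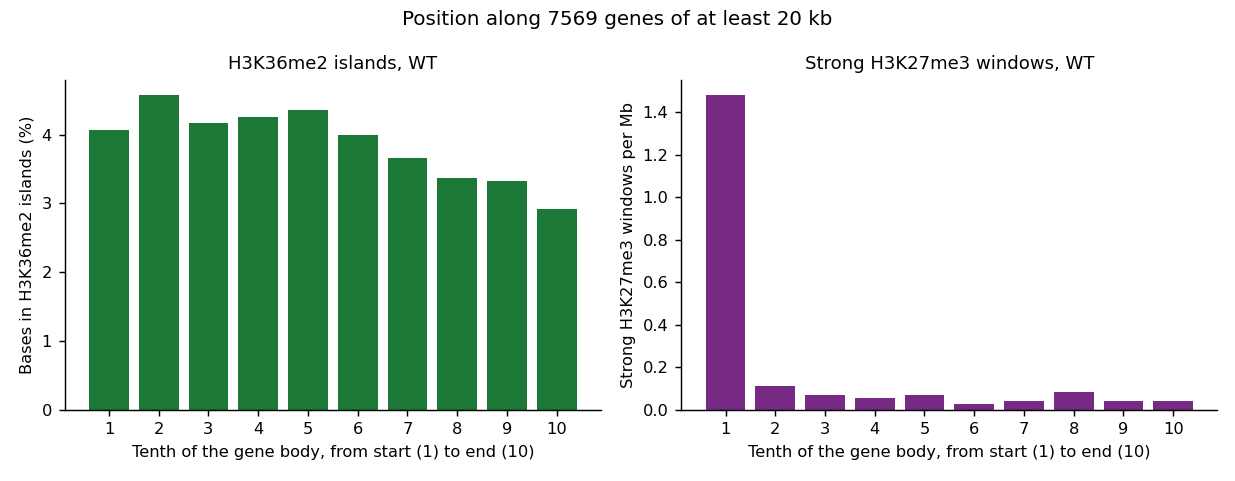
Share of bases in H3K36me2 islands (left, percent) and strong H3K27me3 windows per Mb (right) in each of 10 equal parts of the body of 7569 genes, from start to end, in WT. Strong windows are concentrated in part 1 (1.48 per Mb), while island cover is highest in part 2 (4.57%) and lowest in part 10 (2.92%).

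The strongest windows stood at regulators of embryonic development, one or a few per gene. Nkx2-2, a homeobox factor of the ventral neural tube, had the highest, at chr2:147190044-147190444, with 205.5 reads. Tbx5, a T-box factor of heart and forelimb, had 197.1 reads at chr5:119835320-119835720, and Prrx1, a homeobox factor of limb mesenchyme, had 190.2 at chr1:163311110-163311510. Lin28b, an RNA-binding regulator of let-7 microRNAs, had 188.4, and Lmx1b, a LIM homeobox factor of dorsal limb, had 184.7. Emx1 of the dorsal forebrain had 181.1 and Prdm16 of brown fat and craniofacial tissue 180.4. Pax8, of thyroid and kidney, and Vgll2, a cofactor of muscle, each had 177.2, Neurod1 had 177.0 and Pax2 176.7. Genes of other kinds were among the top: the phosphodiesterase Pde10a had 184.3, the adenylate cyclase Adcy5 179.6, and Chat and Slc18a3, which make and load acetylcholine, share a window of 177.8. All are listed as lower in the mutant, and none had an H3K36me2 island within 5 kb. Island distance ranged widely among them, from 32180 bp at Emx1 and 48890 bp at Neurod1 to 989300 bp at Pde10a.

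Strong listed windows rarely stood in groups. With a gap of at most 20 kb, the 426 formed 419 runs, of which 413 were single windows. Neighbouring windows that are not listed, or are below the strong level, were not joined. The breadth of H3K27me3 at a gene therefore cannot be read from these runs. Pax2 had 3, and Lin28b, Tlx3, Sp5 and Nr2f1 were among those with runs of 2. Within 5 kb, Tbx5, Lin28b, Tlx3, Sp5 and Clybl had 2 each, with levels at Tlx3, Sp5 and Clybl of up to 7.36, 6.86 and 6.77. Away from genes, the highest windows were at chr13:98502865-98503265 with 7.55, chr19:59194173-59194573 with 7.51, chr13:31080035-31080435 with 7.42, chr2:146836245-146836645 with 7.39 and chr7:49678115-49678515 with 7.33. By chromosome, the share of strong windows ran from 2.67% on chromosome 16 to 13.7% on chromosome 7.

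The strong H3K27me3 windows lay apart from the H3K36me2 islands. Of the 4257 H3K27me3 windows, 294 (6.91%, 95% interval 6.16 to 7.71) lay in an H3K36me2 island. None of the 426 strong windows did, which allows a share of up to 0.862%. The strong window nearest to an island was 11.4 kb away. For scale, islands covered 3.78% of the bases in the bodies of all genes, and their share of the genome was not computed. The share of all listed windows in islands was thus not low. With windows ranked by H3K27me3 level into 10 equal bins, the shares in islands were 30.8%, 21.2%, 12.9% and 3.77% in bins 1 to 4, 0.235% in bin 6, and 0 in bins 5 and 7 to 10. Windows inside islands had a median of 1.30 (2.47 reads), and those outside 5.04 (32.9 reads), a difference of -3.74 on the log2 scale.

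This contrast was carried in large part by the direction in which windows are listed. Windows listed as higher in the mutant were low in WT and often in islands (288 of 1539, 18.7%), and those listed as lower in the mutant were high in WT and seldom so (6 of 2718, 0.221%). Within the former the median was 1.30 inside islands, 1.60 within 5 kb, 1.98 at 5 to 20 kb, 2.26 at 20 to 100 kb and 2.36 beyond, so that the median was higher at each step away. Within the latter it was 3.76 in the 6 windows inside, 5.16 in 13 within 5 kb, 5.48 in 62 at 5 to 20 kb, 5.76 in 710 at 20 to 100 kb and 5.68 in 1927 beyond, so that the classes beyond 20 kb were alike. Strong windows within 20 kb of an island numbered 4 (0.939%), against 3.36% of the other windows listed as lower. Leaving out the islands listed as higher in the mutant, 291 windows (6.84%) were in islands, 5 of them listed as lower and none strong.

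**Figure D3:**
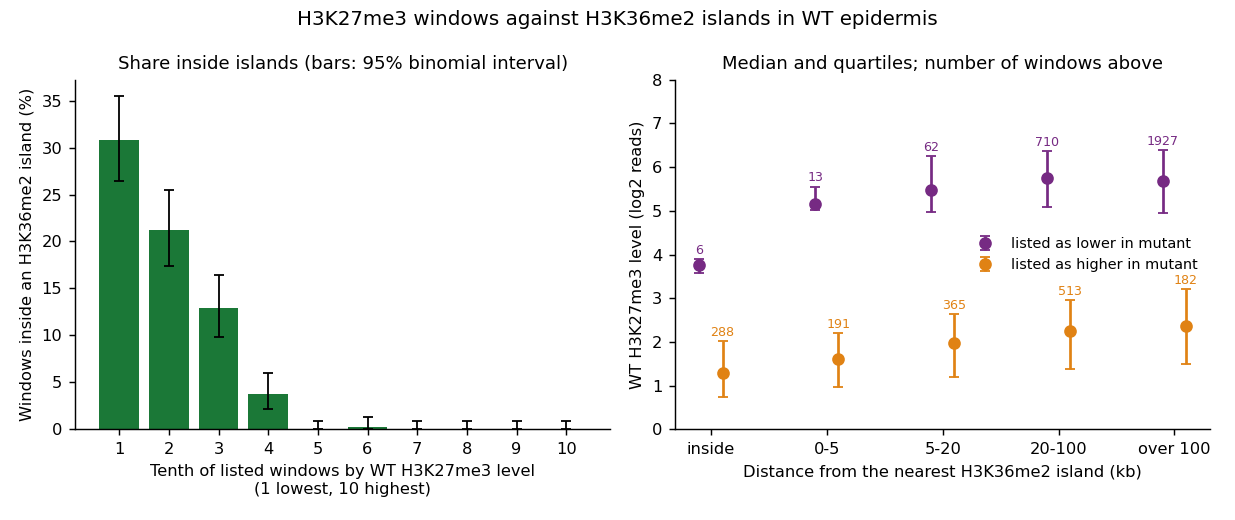
Left, share of listed H3K27me3 windows inside an H3K36me2 island in 10 bins of WT H3K27me3 level, with 95% binomial intervals, from 30.8% in the lowest bin to 0 in the highest. Right, median WT H3K27me3 level (point) with quartiles (bars) by distance from the nearest island in kb, for windows listed as lower (purple) and higher (orange) in the mutant. The number of windows stands above each point.

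Seen from the islands, density varied little with the distance from strong H3K27me3. The 292 islands that hold a listed window had a median of 0.730 RPM per kb, a median width of 6600 bp, and 6.16% were dense. Only 4 islands were within 20 kb of a strong window. The 158 islands at 20 to 100 kb had a median of 0.671, with 6.33% dense (95% interval 3.08 to 11.3). The 6760 islands over 2 Mb away had a median of 0.708, with 11.3% dense (10.57 to 12.1).

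An island and a strong H3K27me3 window were both in the body of 16 genes. An island was in the body of 3524 genes (17.1% of all) and a strong window in the body of 274 (1.33%). The 16 are 5.84% of the genes with a strong window and 0.454% of the genes with an island, in each case below the share over all genes. This holds for strong windows only. Counted within 5 kb, 467 of the 2143 genes with any listed window also had an island, while 21.7% of all genes had one. The 16 genes were long, with a median of 394 kb against 55.9 kb for genes with a strong window, 52.5 kb for genes with an island and 17.5 kb for all genes. Inside them the marks were well separated: the nearest island was between 20.2 kb and 504 kb from the strong window, with a median of 155 kb. Reln, a secreted glycoprotein of neuronal migration, had the highest window of these (7.10, 137.2 reads) with an island 146 kb away. Kirrel3, a synaptic adhesion molecule, had 7.02 with 504 kb, and Nav1, a neuron navigator, had 7.02 with 59.5 kb to an island listed as higher in the mutant. Med12l had 128.0 reads. On the log2 scale, Bmper, a BMP-binding protein, had 6.97, Spsb4 6.96, Adgrv1 6.96 with the nearest of its 25 islands 245 kb away, and Ank1, an ankyrin, 6.95.

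Windows of equal coordinates in both tables gave both marks at 1 place. There were 214, which is 29.3% of the H3K36me2 windows and 5.03% of the H3K27me3 windows. Across them the WT levels ran against each other, with Spearman's rho -0.617 and Pearson's r -0.594 (n = 214 windows, which share libraries, animals and the listing rule). Within the classes set by the listing the values differed. In the 88 windows listed as lower for H3K36me2 and higher for H3K27me3 rho was -0.290, with medians of 3.48 and 1.89. In the 77 listed the opposite way it was 0.113, with medians of 1.11 and 6.01. In the 38 listed as lower for both it was 0.0353, with 2.97 and 5.97, and in the 11 listed as higher for both 0.355, with 1.64 and 2.79. The part of the selection of windows in the pooled relation was not tested.

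Single places, chosen after their values were seen, show both ends. The Prrx1 window had 2.97 normalised reads of H3K36me2 and 190.2 of H3K27me3, the Prdm16 window 1.78 and 180.4, and a Pax2 window 1.72 and 158.7. At the other end, Tmprss4, a membrane serine protease, had 17.3 and 3.04, Slc16a10, a transporter of aromatic amino acids, 16.9 and 4.19, and Adgrv1 15.4 and 1.94. A window away from genes at chr14:110634136-110634536 had 18.01 and 1.29. Elfn1, a synaptic protein, was between these with 7.46 and 158.6. Reads are normalised within a mark, so levels are compared between windows and not between marks.

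**Figure D4:**
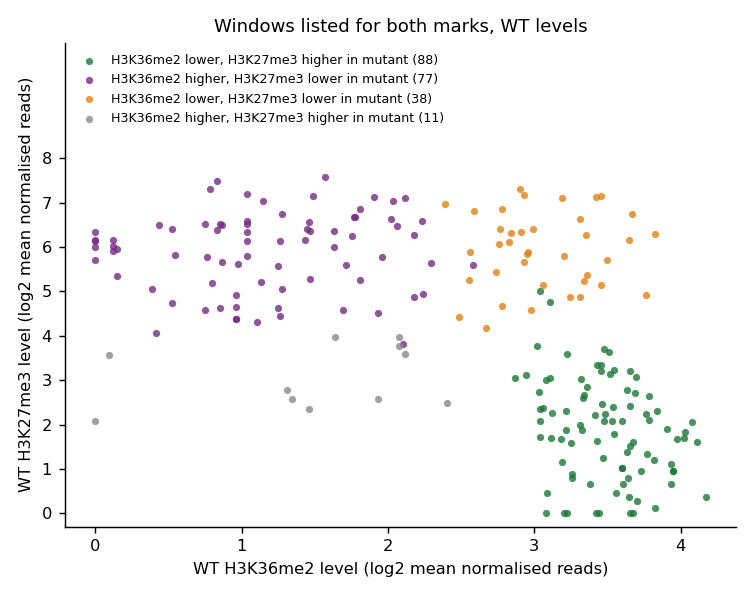
WT H3K27me3 level against WT H3K36me2 level (both log2 mean normalised reads) in the 214 windows listed for both marks, coloured by the direction in which each mark is listed in the mutant. Most of the 88 green windows lie at lower right and of the 77 purple ones at upper left. The 38 orange ones lie between 2 and 4 on the horizontal axis at high H3K27me3 and overlap both at their edges.

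Gene lists were read against all 20661 genes, of which 21.7% had an island within 5 kb, 2.44% a dense island, 10.4% a listed H3K27me3 window and 1.85% a strong one. Long genes have more room for either: an island was within 5 kb of 12.2% of genes under 20 kb, 28.5% at 20 to 100 kb, 46.6% at 100 to 500 kb and 39.5% above, and a strong window near 1.28%, 1.68%, 4.63% and 10.2%.

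Polycomb-bound developmental regulators, 207 genes with a median length of 6.33 kb, carried H3K27me3 far more often than H3K36me2 islands. A strong window was near 65 (31.4%) and a listed window near 116 (56.0%), all 116 with one listed as lower in the mutant. An island was near 11 (5.31%), none of them dense, and no gene had both an island and a listed window. Among genes under 20 kb as a whole, 12.2% had an island and 1.28% a strong window, and 29 of the 647 with a listed window also had an island. The highest windows of the list were those of Nkx2-2, Tbx5, Prrx1 and Lmx1b given above. The 80 genes with neither may hold H3K27me3 at windows that are not listed. The densest islands were near Hoxc4 (0.811 RPM per kb), Gata3, which acts in the epidermis (0.751), Meis2, a homeobox cofactor (0.746), and Barx2 (0.739).

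Lists of keratinocyte genes held islands more often than the background. Of the 10 keratinocyte markers used to look at the labelled tissue, 7 had an island, 3 a listed H3K27me3 window and none a strong one. This describes marks and not expression. Among 30 basal and stem cell genes, with a median length of 56.6 kb, 19 (63.3%) had an island, 15 (50%) one not listed as higher in the mutant, 3 a dense one, and 1 a strong window. Over all genes 17.5% had an island not listed as higher, and 28.5% of genes of 20 to 100 kb had any island. A listed H3K27me3 window was near 9 of the 30 (30.0%), and 6 had one listed as lower in the mutant. Among genes of 20 to 100 kb, 10.9% had a listed window, so this list was above the background for both marks. Trp63, the master regulator of stratified epithelium, had 12 islands (5 listed as higher in the mutant) over 33.0% of its body, up to 0.874 RPM per kb, and its highest listed H3K27me3 window had 2.52 reads. Egfr had 11 islands over 44.4%, Cd44 8 over 41.8%, and Lrig1, a marker of follicle stem cells, 5 over 43.2%. At Krt14 and Krt5, the basal keratins, the 1 island each had only 0.563 and 0.633 and is listed as higher in the mutant. The strong window was at Lgr5, a marker of follicle stem cells (6.90, 119.5 reads), and windows below the strong level were at Sox9 (6.03), Itga3 (5.74) and Bnc1 (5.47).

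Of 51 epidermal differentiation genes, median length 7.59 kb, 22 (43.1%) had an island and none a strong window. Ivl had 0.919 RPM per kb over 96.5% of its body, Krtdap 0.890, and the desmogleins Dsg1c and Dsg1a 0.811 and 0.804. The highest H3K27me3 window was at Cnfn, cornifelin, with 5.64. Krt1 and Krt10, the first suprabasal keratins, had neither an island nor a listed window. Of 27 keratinocyte adhesion genes, median length 31.3 kb, 16 (59.3%) had an island. Dsc2, a desmocollin, had 0.873 RPM per kb over 42.2% of its body, Cldn1, a claudin of tight junctions, 0.821, Pkp1, a plakophilin of desmosomes, 0.805, and the desmoglein Dsg2 0.772. The tight junction protein gene Tjp1 held the list's strong window (6.69, 103.0 reads).

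**Figure D5:**
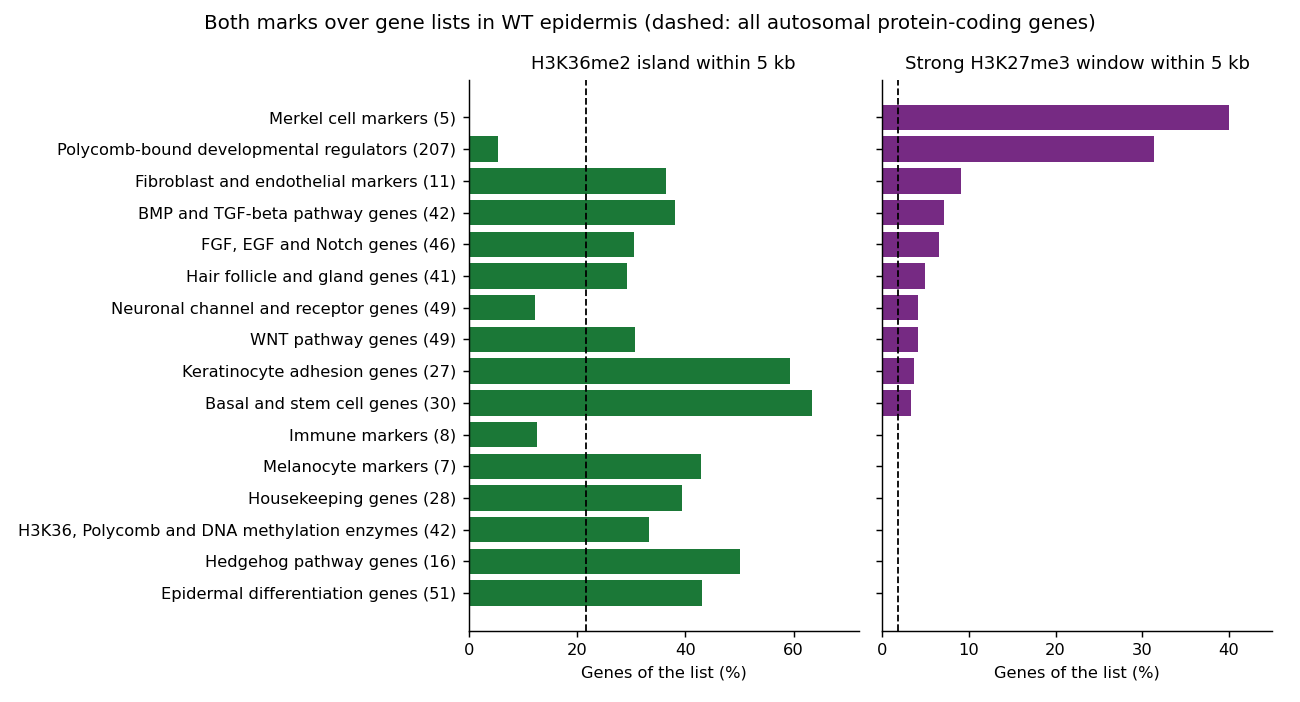
Share of genes (percent) in each list with an H3K36me2 island within 5 kb (left) and with a strong H3K27me3 window within 5 kb (right) in WT, with the number of genes in parentheses. Dashed lines mark all autosomal protein-coding genes (21.7% and 1.85%). Basal genes lead on the left with 63.3%, and Polycomb-bound regulators stand at 5.31% on the left and 31.4% on the right.

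Genes of signalling pathways held both marks, in lists with median lengths from 24.0 to 45.5 kb. Of all genes of 20 to 100 kb, 28.5% had an island, 10.9% a listed window and 1.68% a strong one. An island was near 152 of the 791 of these genes with a listed window. The island shares of the WNT list and of the FGF, EGF and Notch list were near that 28.5%, and strong windows were few in each list. Of 49 WNT pathway genes, 15 (30.6%) had an island and 2 (4.08%) a strong window, at the secreted inhibitor Dkk1 (7.18, 144.5 reads) and the transcription factor Lef1 (6.70). The ligands Wnt7a and Wnt2 had 6.44 and 6.40, and Wnt2 also had an island of 400 bp with 2.53 RPM per kb. The secreted inhibitor Sfrp1 had islands over 41.8% of its body, up to 0.817, the ligand Wnt5b had 0.802 and the coreceptor Lrp5 0.792. An island was near 4 of the 14 WNT genes with a listed window. Of 16 Hedgehog genes, 8 (50%) had an island, 5 (31.3%) one not listed as higher in the mutant, and 6 (37.5%) a listed window, none strong. The windows were highest at Hhip (6.34), a decoy receptor, and at the ligands Shh (6.23), Dhh (5.92) and Ihh (5.50). The islands were densest at the coreceptor Cdon (1.08 RPM per kb) and at the effector Gli3, with 7 islands over 16.1%. Of the 6 Hedgehog genes with a listed window, 2 also had an island. Of 42 BMP and TGF-beta genes, 16 (38.1%) had an island and 3 a strong window, at the ligands Gdf6 (7.37) and Gdf7 (7.16) and at the antagonist Grem1 (6.70). Tgfbr3, a coreceptor, had 0.919 RPM per kb, the ligand Tgfb2 0.839 and the receptor Acvr1b 0.807. An island was near 2 of the 8 genes with a listed window. Of 46 FGF, EGF and Notch genes, 14 (30.4%) had an island and 3 a strong window, at Hey2 (7.13), a Notch target, Fgf5 (6.86), an FGF that ends hair growth, and Erbb4 (6.70). Jag1, a Notch ligand, had 0.822 RPM per kb, Egf 0.790 and Tgfa, another EGF receptor ligand, 0.763. Fgf2 was just below the strong level at 6.63. A listed window was near 14 (30.4%) of the 46, and none of these 14 had an island.

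Lists of other cell types varied. Of 49 neuronal channel and receptor genes, with a median length of 186 kb, 25 (51.0%) had a listed window, 2 a strong one (Grik3 at 6.97 and Cacna1a at 6.69), and 6 (12.2%) an island, the densest at Syt1 (0.943 RPM per kb), a sensor of synaptic vesicles. Among genes of 100 to 500 kb as a whole, 46.6% had an island and 28.8% a listed window. Of the 5 Merkel cell markers, 4 had a listed window, with Atoh1 at 7.16, Sox2 at 6.67, Piezo2 at 6.62 and Isl1 at 6.53, and none of the 5 had an island. Among 11 fibroblast and endothelial markers, 4 (36.4%) had an island, 2 of them dense, 5 (45.5%) a listed window and 1 a strong one. Pdgfra had 7.05, Kdr 5.92 and Dcn 4.81, while Vwf (0.919 RPM per kb) and Pecam1 (0.906) had dense islands and listed windows of only 3.30 and 4.05 reads. Tek (0.785) and Fbln1 (0.753) had islands that were not dense. Of 7 melanocyte markers, 3 (42.9%) had an island and 2 (28.6%) a window, Sox10 (5.91) and Kit (5.31). Both lists have median lengths between 20 and 100 kb, where 28.5% of all genes had an island and 10.9% a listed window. Of 8 immune markers 1 (12.5%) had an island and none a window. Of 41 hair follicle and gland genes, median length 9.15 kb, 12 (29.3%) had an island and 11 (26.8%) a listed window. A strong window was near 2, Aqp5 (6.98) and Pparg (6.78). Among genes under 20 kb, 12.2% had an island, 5.84% a listed window and 1.28% a strong one.

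Housekeeping and chromatin enzyme genes had few listed H3K27me3 windows, and the enzyme genes had islands about as often as genes of their length. Of 28 housekeeping genes, median length 9.27 kb, 11 (39.3%) had an island and 7 (25%) one not listed as higher in the mutant. Among genes under 20 kb these shares were 12.2% and 9.74%, and over all genes the latter was 17.5%. None of the 28 had a listed window, against 5.84% of genes under 20 kb, a share at which 28 genes would hold few in any case. Islands were at B2m (0.862 RPM per kb), Ywhaz, a 14-3-3 protein (0.741), and Actb, beta-actin (0.719), among others. Of 42 enzymes of H3K36 methylation, Polycomb and DNA methylation, median length 42.6 kb, 14 (33.3%) had an island and 10 (23.8%) one not listed as higher in the mutant. Among genes of 20 to 100 kb these shares were 28.5% and 22.3%, and 10.9% had a listed window. The 1 listed window of the enzymes was at Tet1 (4.75). Among the H3K36 methyltransferases, Nsd3 had 0.773 RPM per kb and Nsd1 0.764. Jarid2, a Polycomb cofactor, had an island of 800 bp with 5.75. The marks at these loci are not expression.

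Gene clusters held few listed windows. The Hoxa, Hoxb and Hoxc clusters each had 1 listed H3K27me3 window (6.51, 4.67 and 6.26) and 1 island, and Hoxd had 2 windows (6.44 and 6.74, the latter strong) and no island. The type I keratin cluster had 11 islands over 6.07% of its span and the type II cluster 8 over 6.90%, with the type II cluster's listed window of 6.36 at Krt18, a keratin of simple epithelia. The epidermal differentiation complex, which holds Ivl, Lor and the Sprr genes, had 35 islands over 184.4 kb or 6.25% of its span with a median of 0.764 RPM per kb. Its 5 listed H3K27me3 windows had a median of 1.59.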

How the data were processed

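The data are CUT&RUN libraries of mouse epidermis, sequenced as 37 bp paired reads per the labels' protocols, and aligned and compared with Bowtie2, DiffBind, DESeq2 and SICER on GRCm38 (mm10), without stated versions, per the submitters' processing notes. In the window tables the values are log2 means of normalised reads per 401 bp window with a floor of 1 read, and a p-value and an FDR per window, as deposited by the authors. In the island table the authors deposited WT read counts and RPM (reads scaled to depth) per island, with an FDR per direction. Dividing count by RPM gave a pool of 47361190 WT reads. How the 3 libraries were merged was not stated, and the depth of single libraries is unknown. The precision of an island's density is that of its count.

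From these, density per kb, overlaps with RefSeq genes and windows, medians and shares were computed with Python 3.11.15 and pandas 2.3.3, and the overlap and summary functions were tested on simulated data. Intervals of shares are exact binomial, those of counts exact Poisson and those of medians from order statistics, at 95%. Dense islands and strong windows are the top 10%. Overlap means 1 bp, and a gene's surroundings reach 5 kb. Chromosomes X, Y and M were left out.

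The members, gene lists and thresholds were chosen with earlier results of these data known. Named genes are the highest by density, covered bases, window level and number of strong windows, and up to 4 per list by each mark, and of these the text gives most. Some are not reported here. Other genes are said to be named after their values were seen, or are the cell type markers. The printed promoters are those with the highest window and the densest non-extreme island, 1 per island, with list members added after their values were seen.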

Additional observations from a re-analysis of the deposited data

Results flagged for a closer look

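Islands outside the autosomes were not used in any comparison above. The X chromosome had 57 islands with 9973 WT reads and a median of 1.56 RPM per kb. The Y chromosome had 442 islands with 91745 reads and a median of 1.27 RPM per kb. The mitochondrial genome had 2 islands with 26686 reads and a median of 45.5 RPM per kb. These medians lie above the autosomal median of 0.704 RPM per kb, the tables give no IgG value beside them, and the cause was not tested.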

How the results depend on the processing

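Of 52 alternatives over 8 results, 30 stayed within the interval or 1.5 times the count given, 22 moved and none reversed. A reversal was defined only for the ratio of density and the differences in level, so shares and counts could only stay or move. The ratio of density in bodies to outside, 0.906, became 0.900 with all chromosomes, 0.918 with genes extended by 5 kb, 0.927 with all annotated genes, and 0.948 without islands listed as higher in the mutant, an alternative chosen after seeing the data. The share of dense islands in bodies, 34.5%, became 24.2% with all chromosomes, 44.0% with extended genes and 54.4% with all annotated genes, each below the share of all islands (52.3%, 61.4% and 68.7%). The difference at gene ends, 1.51, became 0.95 at an FDR under 0.01, 0.64 and 0.33 in windows listed as lower and higher, and 1.83 within 5 kb. Strong windows at ends, 27.5%, became 5.84% of the top windows listed as higher and 71.4% within 5 kb. The share of windows in islands, 6.91%, became 3.83% at an FDR under 0.01, 0.221% in windows listed as lower and 18.7% in those listed as higher, and the difference in level, -3.74, became -4.09, -1.94 and -0.77. Genes with an island and a strong window in the body, 16, became 8 at an FDR under 0.01, 8 in windows listed as lower, where the top 10% is taken anew, and 42 with the top 20%. Except where the construction shows it, the cause was not tested.

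No paired analysis was possible because the tables hold no column per library. For the same reason leaving out each replicate was not run. Levels of H3K27me3 at windows that did not differ between genotypes were not analysed here. At a median of 167 reads per island, neighbouring ranks in density are within counting error.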
